A study of Mus musculus with 4 samples.

Results

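The comparison of a double knockdown of Ptbp1 and Ptbp2 with a knockdown of Ptbp1 alone asks what the Ptbp2 shRNA adds once Ptbp1 is low, including what becomes of the Ptbp2 that the Ptbp1 knockdown holds above control. It rests on 2 of the 4 libraries of the series, chosen by their shRNA labels. N2A cells, a mouse neuroblastoma line, were transfected for 5 hours with Lipofectamine and cultured for 3 days, with an shRNA against Ptbp1 in one library and with shRNAs against Ptbp1 and Ptbp2 in the other. The remaining pair received a control shRNA or the Ptbp2 shRNA alone, and is used here as a second view of the same Ptbp2 shRNA. Each condition was 1 library of 1 cell line, so no spread between replicates exists, no test was run, and intervals cover counting error only. Where 4 values follow a gene or exon with no library named, they are given in the order control, Ptbp1, Ptbp2 and double knockdown.

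The products of Ptbp1 and Ptbp2, known as PTBP1 and PTBP2, bind stretches of C and U in pre-mRNA and most often repress the inclusion of nearby exons. Ptbp1 is made in most dividing cells and promotes the skipping of a Ptbp2 exon, which shifts the reading frame and leads to decay of the transcript, so that Ptbp2 stays low until Ptbp1 falls in developing neurons. Ptbp2 then holds back many of the same exons until it falls in turn as neurons mature.

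Reads on the fixed exon list numbered 205 M in the Ptbp1 knockdown and 255 M in the double knockdown, and 239 M to 255 M in the other pair. Reads over splice junctions numbered 58.2 M and 72.8 M in the compared libraries. Mitochondrial transcripts held 9.78% to 10.6% of the sum of transcript level times length across the 4 libraries. The coverage of the first 3 exons over that of the last 3 exons was taken in genes with at least 10 exons. Its median was 0.484 in the Ptbp1 knockdown and 0.455 in the double knockdown, with 0.479 in control and 0.445 in the Ptbp2 knockdown. Both libraries with the Ptbp2 shRNA thus lay below both without it. What this contributes to the differences below was not tested. None of the 5 fibroblast markers reached 1 CPM, the scaled exon reads per M reads, nor did the macrophage markers Ptprc, Csf1r and Aif1. For Cd68, the other listed macrophage marker, no value is given here. Of the glial markers Aqp4 was at 0 in all 4 libraries. Of the 10 neuroblastoma markers 8 were measured, among them Chga, a protein of secretory granules, at 119 and 109 CPM. The summed level of these markers was 722, 849, 709 and 666 CPM, and Dbh and Th, described below, were the 2 past 2-fold.

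The targeted genes came first. Ptbp2 stood at 139, 270, 37.3 and 58.6 CPM. It was thus 4.61-fold lower in the double than in the Ptbp1 knockdown by exon reads and 3.57-fold lower by FPKM, the per-length level of Cufflinks (20.6 against 76.0), and it remained above the level of the Ptbp2 knockdown. Ptbp1 stood at 646, 188, 736 and 144 CPM. The double knockdown therefore also held less Ptbp1 than the Ptbp1 knockdown, by 0.39 on the log2 scale in exon reads and by 0.58 in FPKM. What this further loss of Ptbp1 contributes to the differences below was not tested. Ptbp3, the third family member, was at 152, 80.7, 90.8 and 80.6 CPM, a log2 difference of 0.00 between the compared libraries.

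The family's own exons were measured as well. Junction inclusion is the mean of the reads over both junctions that join an exon to its neighbours, as a percent of that mean plus the reads that skip the exon. The 34-nucleotide exon of Ptbp2, which is not a multiple of 3 long, was included at 72.2%, 94.5%, 42.7% and 84.5%. A like 34-nucleotide exon of Ptbp3 was included at 28.0%, 57.5%, 30.6% and 77.4%, and its difference of 19.96 points lay just under the threshold of 20 points used below. A 78-nucleotide exon of Ptbp1 stayed between 51.5% and 56.6% in all 4 libraries.

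More genes were lower than higher in the double knockdown, and Dbh, of noradrenaline synthesis, and the matrix protein gene Ltbp3 were among those with the largest differences. By exon reads, 237 of 10813 measured genes (2.19%) were at least 2-fold lower than in the Ptbp1 knockdown and 19 (0.176%) at least 2-fold higher. By FPKM the counts were 108 lower (1.54%) and 61 higher (0.872%) of 6994, so the balance of both directions depends on the measure. In both measures 42 genes (0.636% of 6601) were lower and 3 (0.0454%) higher, and the genes named first come from these. Fold values below are from exon reads on the CPM + 0.1 scale.

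Dbh, which makes noradrenaline from dopamine, stood at 47.2, 177, 17.4 and 49.6 CPM. The double knockdown was 3.56-fold below the Ptbp1 knockdown and close to control. Th, which makes the precursor of dopamine, ran the same way at low levels (0.609, 3.19, 0.152 and 0.933 CPM), but its log2 difference of -1.67 in exon reads was -0.87 in FPKM. Of the 14 measured catecholamine and noradrenergic genes these 2 were lower and none higher, against 2.19% and 0.176% of all genes, and the list's median log2 difference was -0.05, against 0.03 over all genes.

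Ltbp3, which binds latent TGF-beta in the matrix, stood at 33.3, 75, 10.6 and 24 CPM. Pi16, a secreted protein of the CAP family, stood at 73.5, 122, 29 and 44.5 CPM. Pgf, a growth factor of the VEGF family, stood at 7.33, 15.6, 4.39 and 5.96 CPM. In each of these 3 genes the Ptbp1 knockdown was the highest library and the Ptbp2 knockdown the lowest. Angpt4, an angiopoietin, was 3.96-fold lower in the double knockdown (6.73 to 1.63 CPM) and Kazald1, which carries a Kazal-type domain, was 3.53-fold lower (5.34 to 1.44 CPM). Both were low in all 4 libraries, with control at 2.67 and 2.43 CPM.

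Ace, the angiotensin-converting enzyme, stood at 63.1, 114, 27 and 44.1 CPM. Faim2, an inhibitor of Fas-driven cell death, stood at 36.5, 70.1, 14.2 and 27.9 CPM. Tmem176a, a membrane protein, stood at 20.3, 29.7, 8.6 and 12 CPM. In all 3 the Ptbp1 knockdown was again highest, and the double knockdown lay below control. Trp53inp1, a p53 target that acts in autophagy and cell death, was 3.54-fold lower in the double knockdown (12 to 3.32 CPM, with control at 3.38). Svip, which inhibits degradation of proteins from the endoplasmic reticulum, was 2.99-fold lower, at 13.7 and 4.50 CPM. Rec8, a cohesin subunit of meiosis, was 2.60-fold lower, at 61.8 and 23.7 CPM, and Csdc2, an RNA-binding cold-shock protein, was 2.78-fold lower, at 26.4 and 9.42 CPM. Mgst2, a glutathione S-transferase of the membrane, lay at 2.47 and 0.98 CPM, and its log2 difference of -1.25 was -0.81 with a pseudocount of 1 CPM.

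The 3 genes higher in both measures were Socs2, Ankrd45 and Myl9. Socs2, which dampens growth hormone and cytokine signalling, stood at 30.7, 33.9, 96.1 and 77.8 CPM, so both libraries with the Ptbp2 shRNA lay above both without it. Ankrd45 stood at 14.5, 23.3, 39.3 and 55.3 CPM, with the same split. Myl9, a regulatory light chain of smooth and non-muscle myosin, stood at 4.6, 2.37, 8.93 and 6.23 CPM, again with the 2 libraries of the Ptbp2 shRNA above the others.

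**Figure D1:**
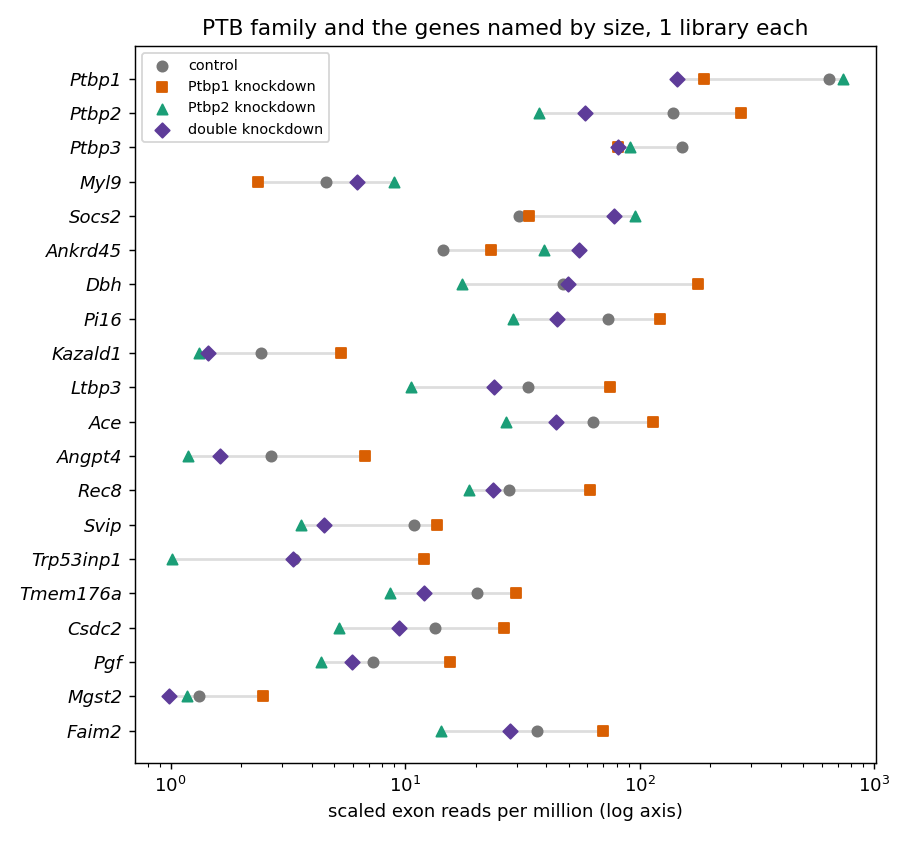
Scaled exon reads per M reads (CPM) on a log axis for the PTB family and the 17 other genes named by size, 1 point per library (circle, control; square, Ptbp1 knockdown; triangle, Ptbp2 knockdown; diamond, double knockdown), with the grey line spanning the 4 values of a gene. Dbh sits at 177 in the Ptbp1 knockdown and 49.6 in the double knockdown, and the Ptbp2 knockdown is the lowest library for every lower gene shown except Mgst2.

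The Ptbp2 knockdown and its control share no library with the compared pair, so they show the same Ptbp2 shRNA without the Ptbp1 shRNA. Loss of Ptbp2 and any other effect of that shRNA cannot be told apart, since both libraries that hold it carry the same one. Both are also numbered together in the series, apart from both libraries without it. Whether they were made or sequenced apart is not known, and a batch difference was not tested. Of the 237 lower genes, 167 were also measured there. Of these, 156 (93.4%) lay below control, against 50.4% of all 10562 genes, and 62 (37.1%) were at least 2-fold below it, against 1.92%. Of the 19 higher genes, 14 were measured there, and 7 were at least 2-fold above control, against 0.615% of all genes. Of the 42 genes lower in both measures, all 42 lay below control in the Ptbp2 knockdown and 24 passed 2-fold, against the same 50.4% and 1.92% of all genes. Without Ptbp2 itself these counts were 41 of 41 and 23. Across the 10562 genes the log2 differences of both pairs had a Pearson r of 0.56. That value is across genes, which are not independent replicates.

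**Figure D2:**
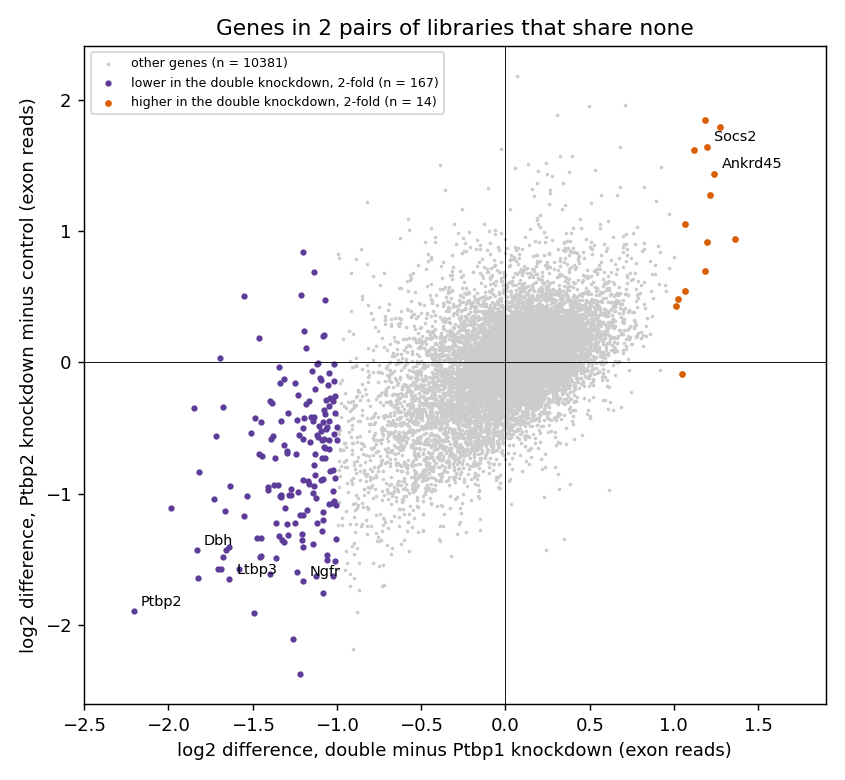
Each point is 1 of 10562 genes, with the log2 difference of the double minus the Ptbp1 knockdown on the x axis and of the Ptbp2 knockdown minus control on the y axis, both from exon reads. Purple points (167) are at least 2-fold lower and orange points (14) at least 2-fold higher on the x axis. Below 0 on the y axis lie 156 of the purple points and 5328 of all 10562 points.

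The difference varied with the level of a gene. In genes under a mean of 1 CPM, which hold 51 of the 237 lower calls, the median log2 difference was -0.11. In genes with a mean of 1 to 2 CPM over the 4 libraries the median log2 difference was -0.32, in those of 2 to 5 CPM -0.21, in those of 5 to 10 CPM -0.14, in those of 10 to 30 CPM -0.02, in those of 30 to 100 CPM 0.08, and above 100 CPM 0.12. In the Ptbp2 knockdown against control the medians of the same classes lay between -0.02 and 0.05. Taken relative to the median of genes of like level, an alternative chosen after the data were seen, the counts were 155 lower and 40 higher, and 38 of the 42 genes lower in both measures still passed 2-fold. What the level trend contributes to each gene was not tested.

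Synaptic and axonal genes mostly lay below 0. Of 38 measured members 29 (76.3%) lay below 0, against 46.2% of all genes. At least 2-fold lower was 1 member and none was higher, which is near the 2.19% and 0.176% of all genes, and the median was -0.35, against 0.03 over all genes. In the Ptbp2 knockdown against control 34 of the 38 lay below 0, against 5465 of all 10813 measured genes, with a median of -0.43. Gria2, a subunit of AMPA-type glutamate receptors, stood at 11.7, 29.4, 5.69 and 11.6 CPM, and was the member past 2-fold. Other members, chosen after their values were seen, included L1cam, a neural adhesion molecule, at 356 CPM in the Ptbp1 knockdown and 209 in the double knockdown, and Cplx2, which clamps synaptic vesicle fusion, at 37.0 and 20.8 CPM. Homer1, a scaffold of the postsynaptic density, had the highest difference (0.36). The REST targets, which overlap this list and include Gria2, had 17 of 21 measured members below 0 and a median of -0.22 (-0.33 in the Ptbp2 knockdown against control).

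Enzymes of cholesterol synthesis lay below 0 in 20 of 21 measured cases, against 46.2% of all genes, with a median of -0.27 and -0.41 in the Ptbp2 knockdown against control. Tm7sf2, a sterol reductase, was the only one past 2-fold, at 13.7, 18.8, 6.06 and 7.99 CPM. Cyp51, the lanosterol demethylase, chosen after its values were seen, went from 239 CPM in the Ptbp1 knockdown to 120 in the double knockdown, with 106 in the Ptbp2 knockdown and 315 in control. Ebp, the sterol isomerase, was the one member above 0, at 0.08.

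Cell cycle and replication genes and ribosomal proteins lay on the other side, with no member past 2-fold in exon reads. By FPKM the ribosomal protein gene Rpl35 differed by -2.35, against -0.09 in exon reads. The 34 measured cell cycle genes had a median of 0.27, and 9 lay below 0, while in the Ptbp2 knockdown against control the median was 0.05 and 14 lay below 0. Cdc6, which loads the replicative helicase, had the highest difference of the list, 0.73, with 69.5 CPM in the Ptbp1 knockdown and 116 in the double knockdown. Cdkn1c, an inhibitor of cyclin-dependent kinases, had the lowest, -0.80, at 1.15 and 0.621 CPM. The 39 ribosomal protein genes had a median of 0.13, and 8 lay below 0. In the Ptbp2 knockdown against control their median was 0.20 and 3 lay below 0. Over all genes of at least 30 CPM the level classes given above had medians of 0.08 and 0.12, and of 0.005 and -0.02 in the Ptbp2 knockdown against control.

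In the actin cytoskeleton list 2 of 30 measured members were past 2-fold higher and none lower, and the median was 0.14, with 0.02 in the Ptbp2 knockdown against control. For this and the following lists, the shares over all genes were 0.176% higher and 2.19% lower, so that a single lower gene in a list of about 20 is no result about the list. They were Myl9, above, and Cnn2, a calponin that binds actin, which stood at 69.6, 29.7, 113 and 67.7 CPM. In both genes the Ptbp1 knockdown was the lowest library. The growth factor receptor and signalling list held 2 members lower and 1 higher of 21. Ngfr, the low-affinity neurotrophin receptor, stood at 180, 126, 56.8 and 54.6 CPM, with both libraries of the Ptbp2 shRNA below both others. Pdgfra, a PDGF receptor, was lower by exon reads (6.72 to 2.06 CPM, log2 difference -1.66) but by -0.67 in FPKM, and Socs2 was the higher one. Ccng1, a p53-responsive cyclin, was the 1 lower gene of 23 in the stress, interferon and p53 list, at 72.9, 75, 27.4 and 32.5 CPM. Aldoc, an aldolase, was the 1 lower gene of 16 in glycolysis, at 21.5 and 10.4 CPM, and fell short of 2-fold with a pseudocount of 1 CPM (-0.99).

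Splicing regulators showed no gene past 2-fold among 50 measured, with a median of 0.05. Mbnl1, a regulator of developmental splicing switches, had the largest negative difference, at 137, 125, 63.7 and 68 CPM (log2 difference -0.88). Celf1, which binds GU-rich RNA, had the largest positive one, 0.57. Lysosome and autophagy genes (24 measured, median -0.15) and neuronal differentiation factors (9 measured, median -0.43, and -0.02 in the Ptbp2 knockdown against control) held no gene past 2-fold, and the lowest of the latter was Notch1, at 1.04 and 0.499 CPM.

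Splicing differed in both directions. Of 103053 cassette exons with at least 20 junction reads in both libraries, 137 (0.133%) were included at least 20 points more in the double knockdown and 136 (0.132%) at least 20 points less. Among the 6883 exons that lay between 5% and 95% in at least 1 of both libraries, these are 1.99% and 1.98%. The deposited SpliceTrap inclusion ratio, a model estimate from the same reads, differed by 0.2 in the same direction for 111 and 100 of them. With Wilson 95% intervals of the compared libraries required not to overlap, the counts were 102 higher and 105 lower. The 10 exons just inside the threshold differed by 20.2 to 20.8 points (higher) and by 20.01 to 20.5 points in size (lower), and the 10 just outside by 19.4 to 19.98 and 19.4 to 19.9 points in size. A further 380 and 427 exons differed by 10 to 20 points.

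A few exons described below are shown here, chosen after their values were seen, because several are so short that a handful of codons is added or removed. The sequences are the exons' own bases 5′ to 3′ on the strand of the gene, from GENCODE vM21 transcripts on GRCm38, matched by gene structure, and all 10 are coding exons. Coordinates in the text are mm9, 1-based, as in the files. Capitals mark runs of at least 6 pyrimidines, which most of these exons lack within themselves. Intronic sequence, where PTB proteins often bind, was not analysed here.
Ap1b1, 21 nucleotides: atgggggatgagtctgaaggg
Tenm4, 21 nucleotides: aaataaagatttcagacatag
Mapkbp1, 18 nucleotides: aacacagacagcttcaca
Agap2, 60 nucleotides: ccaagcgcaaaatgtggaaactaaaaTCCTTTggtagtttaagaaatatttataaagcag
Tmem63b, 39 nucleotides: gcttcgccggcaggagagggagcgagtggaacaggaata
Kif1b, 42 nucleotides: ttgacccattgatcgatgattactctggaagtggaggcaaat
Git2, 90 nucleotides: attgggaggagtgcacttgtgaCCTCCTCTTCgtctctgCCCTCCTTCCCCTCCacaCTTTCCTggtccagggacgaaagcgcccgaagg
Nckap1, 18 nucleotides: caaggacaagtttggaag
Incenp, 12 nucleotides: tgcagctttgtt
Dst, 18 nucleotides: TTCTTCCTgggaaatcag

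Called exons were short and frame-keeping more often than the alternative exons as a whole, which include them. Of the higher exons 101 of 137 (73.7%) and of the lower exons 85 of 136 (62.5%) had a length divisible by 3, against 44.7% of the alternative exons. Exons of at most 27 nucleotides made up 18 of the higher (13.1%) and 10 of the lower (7.35%), against 3.56%. The median pyrimidine content of the exon itself was 52.3% in the higher, 48.5% in the lower and 48.0% in all alternative exons. The alternative exons had a median inclusion of 87.8% in the Ptbp1 knockdown and were not matched to the called exons for inclusion level. These are descriptions of called exons, and were not tested.

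The higher exons had a median inclusion of 14.9%, 39.7%, 20.8% and 69.4%, in the order given above. The lower exons had medians of 75.7%, 75.1%, 62.2% and 45.7%. Of 125 higher exons with 20 junction reads in all 4 libraries, 72 (57.6%) lay above control in the Ptbp2 knockdown and 50 (40%) below, against 35.0% and 62.9% of alternative exons, 11 were at least 20 points higher there (8.80%, against 0.510% of alternative exons) and 3 at least 20 points lower. Of 124 lower exons, 106 (85.5%) lay below control in the Ptbp2 knockdown, against the same 62.9%, 31 (25%) were at least 20 points lower there, against 1.99%, and 1 was at least 20 points higher. Among the 125 higher exons 41 were under 10% in both control and the Ptbp2 knockdown, against 453 of 6476 alternative exons. Of these 41 exons, 10 were under 10% in the Ptbp1 knockdown too, against 299 of the 453. Whether the higher and lower exons differ from each other in this respect was not tested. With 20 junction reads in all 4 libraries, the alternative exons had a median of 89.7% in control. The higher exons had 14.6% and the lower exons 76.2%. The shares of alternative exons were not matched for inclusion level, which limits how far an exon can rise or fall. What this contributes to the shares was not tested. Across 6476 alternative exons the differences of both pairs had a Pearson r of 0.30, which is across exons and not replicates.

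**Figure D3:**
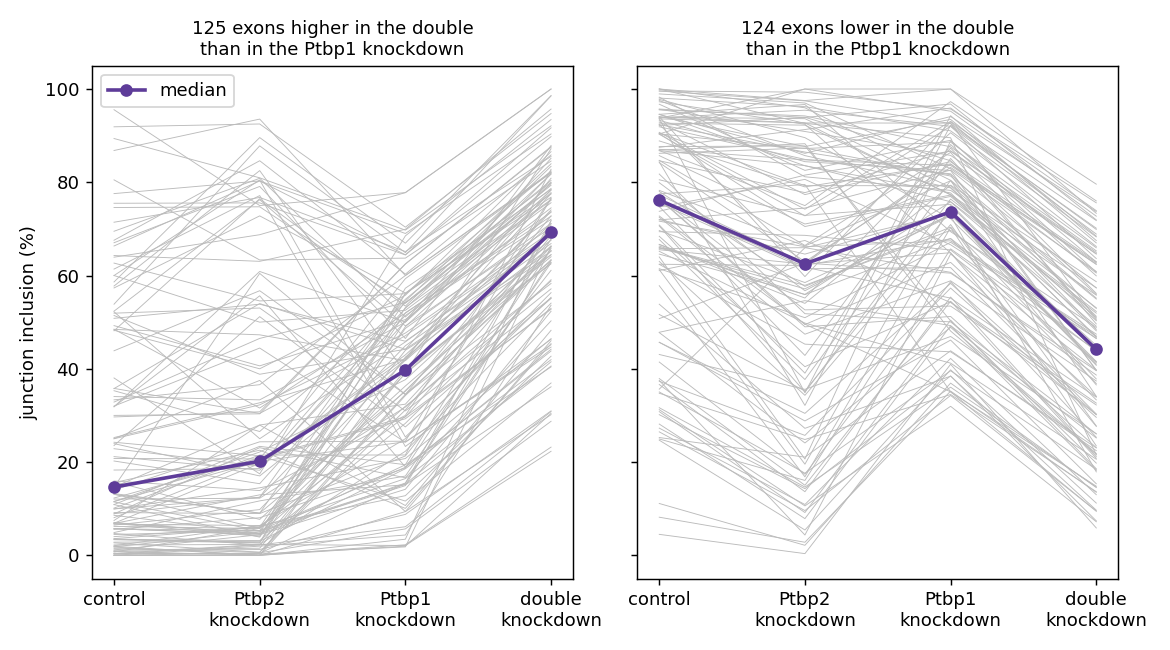
Junction inclusion in percent of the called exons with at least 20 junction reads in all 4 libraries, 125 higher (left) and 124 lower (right) in the double than in the Ptbp1 knockdown. Grey lines are exons and the purple line is the median, which for the higher exons is 14.6%, 20.2%, 39.7% and 69.3% from left to right.

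Some higher exons were nearly silent unless both shRNAs were present. An exon of 96 nucleotides in Wdr7, a WD-repeat protein of vesicle acidification, had no inclusion read in control (0 of 54, which allows up to 5.56%, taken as 3 counts of the total) or in the Ptbp2 knockdown (0 of 64, up to 4.69%). It was included at 3.45% in the Ptbp1 knockdown (Wilson 95% interval 0.951 to 11.7) and at 71.8% in the double knockdown (56.4 to 82.8). A 126-nucleotide exon of Sympk, a scaffold of 3′-end processing (mm9 chr7:19613246-19613371, in an untranslated region), was at 0.415%, 1.80%, 0.285% and 66.2%. The 18-nucleotide coding exon of Mapkbp1, a scaffold of JNK signalling (chr2:119839037-119839054), was at 4.35% in the Ptbp1 knockdown and 53.6% in the double knockdown, on 34.5 junction reads in both, and by the smaller of its inclusion junctions the difference was 20.9 points instead of 49.3. In these 3 exons the intervals of the Ptbp1 and double knockdowns do not overlap, and the other 2 libraries lie near 0.

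Other higher exons stood part way in the Ptbp1 knockdown. The 21-nucleotide exon of Ap1b1, a subunit of the AP-1 clathrin adaptor (chr11:4933245-4933265), was at 0.401%, 15.4% (12.5 to 19.2), 0.399% and 71.8% (67.5 to 75.7). Its 2 inclusion junctions were unequally covered, with 570 and 96 reads in the double knockdown, and by the smaller of both the difference was 36.4 points instead of 56.3. The 21-nucleotide exon of Tenm4, a teneurin of neuronal contacts (chr7:104003227-104003247), was at 14.9% and 67.9%, on few reads, and by the smaller junction the difference was 22.4 points. The 60-nucleotide exon of Agap2, a GTPase-activating protein for Arf (chr10:126527198-126527257), was at 9.38% and 46.0%. The Abi2 exon of 183 nucleotides, in a regulator of the WAVE actin complex (chr1:60506915-60507097), was at 1.15%, 14.2%, 4.41% and 52.3%. The double knockdown lay above every other library for these 4 exons.

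A further 3 exons stood at 15.5% to 30% in the Ptbp1 knockdown. The Socs7 exon of 102 nucleotides (chr11:97238311-97238412), in a suppressor of cytokine signalling, was at 10.1%, 21.5%, 21.5% and 82.8%. Faim, an inhibitor of apoptosis, had a 57-nucleotide exon (chr9:98891334-98891390) at 15.9%, 30%, 13.9% and 76.6%. The Pip5k1c exon of 78 nucleotides, in a kinase that makes PIP2 at synapses and adhesions (chr10:80780071-80780148), was at 5.68%, 15.5%, 4.59% and 63.3%. In each of the 3 the interval of the double knockdown lay above those of the other libraries. The remaining exons named by size, in Tbc1d5, Arhgef10l, Myo9a, Ablim1 and Gripap1, lay at 17.0% to 24.5% in the Ptbp1 knockdown and at 61.1% to 76.5% in the double knockdown.

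Lower exons showed several orders of the libraries. The 39-nucleotide exon of Tmem63b, an osmosensitive channel (chr17:45815912-45815950), was at 100% (159 inclusion reads and no skipping read), 89.5%, 92.6% and 21.5% (16.6 to 27.4). The 18-nucleotide exon of Nckap1, a subunit of the WAVE complex (chr2:80411370-80411387), was at 65.5%, 64.9%, 62.5% and 27.7%. The 42-nucleotide exon of Kif1b, an axonal transport motor (chr4:148635269-148635310), was at 65.9%, 72.8%, 57.1% and 17.9%. In these 3 exons the interval of the double knockdown lay below those of the other libraries. By the smaller junction the Nckap1 difference was -22.0 points instead of -37.2.

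In other lower exons the Ptbp2 knockdown was low as well. The 90-nucleotide exon of Git2, a GTPase-activating scaffold of focal adhesions (chr5:115187357-115187446), was at 57.8%, 70.3%, 16.8% and 23.5%, and of the exons printed above it holds the longest pyrimidine runs. The 57-nucleotide exon of Inf2, a formin (chr12:113850759-113850815), was at 63.0%, 70.9%, 34.3% and 27.7%. In both exons the 2 libraries with the Ptbp2 shRNA lay below the others, with no overlap of intervals between the 2 sides.

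Incenp, the scaffold of the chromosomal passenger complex, had a 12-nucleotide exon (chr19:9957682-9957693) at 30.8%, 50.4%, 9.17% and 18.6% with the same split, and by the smaller junction the difference was -12.7 points instead of -31.9. Dst, a spectraplakin that links cytoskeletal filaments, had an 18-nucleotide exon (chr1:34353587-34353604) at 93.7%, 94.3%, 34.9% and 67.5%, lower by 26.8 points in the double knockdown and by 58.8 points in the Ptbp2 knockdown against control. The Dst difference was -18.5 points by the SpliceTrap ratio, under the threshold, and -50.9 points by its smaller junction. Ndrg4 had a 39-nucleotide exon (chr8:98236225-98236263) at 4.49%, 41.0%, 0.358% and 5.86%, so that only the Ptbp1 knockdown stood high. The Eml4 exon of 174 nucleotides (chr17:83824598-83824771), in a microtubule-associated protein, was at 97.3%, 64.8%, 92.4% and 33.3%, and the Ptprf exon of 579 nucleotides (chr4:117898404-117898982), in a receptor tyrosine phosphatase, at 97.8%, 72.2%, 89.6% and 41.3%. In both of these the Ptbp1 knockdown already lay below control and the double knockdown lay lower. Of the rest named by size, Pdzd4, Cspp1, Man2b2, Slc12a5 and Slc38a10 were lower by 30.9 to 42.9 points, Slc12a5 on 22.5 and 22 junction reads. Prune2 was lower by 64.2 points, but reads were found over only 1 of its 2 inclusion junctions in both libraries, and by the smaller junction the difference was 0.

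**Figure D4:**
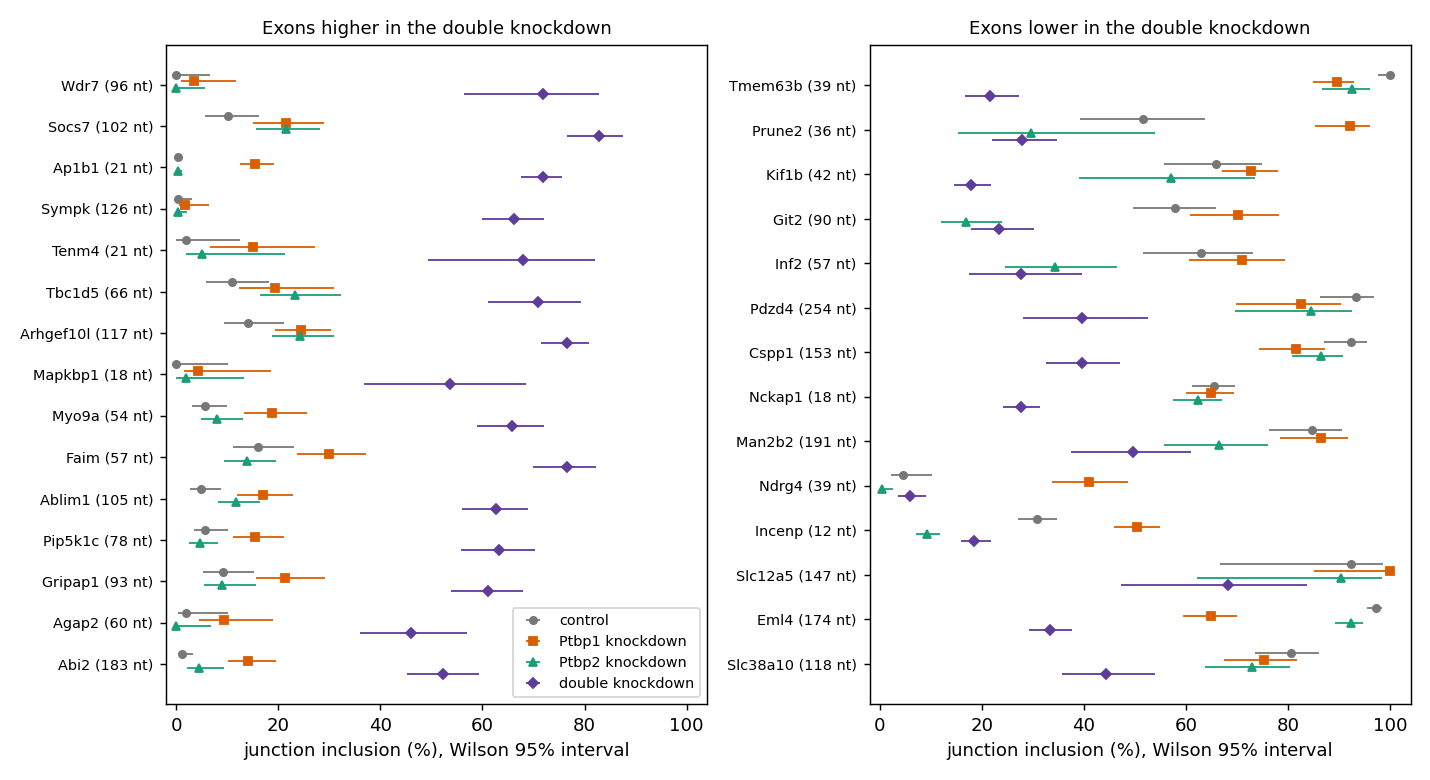
Junction inclusion in percent with Wilson 95% intervals (counting error only) for the exons with the largest differences, 15 higher and 14 lower, 4 libraries per exon. On the left the double knockdown lies above the other libraries for every exon (46.0% to 82.8%), while on the right the Ptbp2 knockdown lies near the double knockdown for Git2 and Inf2 and near control for Tmem63b and Nckap1.

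Known targets of PTB proteins were looked up next. Of 82 listed genes with a measured exon, 22 (26.8%) had a called one, against 243 of 9900 genes (2.45%). The list was written with earlier results of these data known and is not independent evidence. Among higher exons on it, the 45-nucleotide exon of Atp8a1, a phospholipid flippase, was at 3.34%, 50.4%, 2.63% and 85.1%. The 66-nucleotide exon of Ap2a1, a subunit of the AP-2 adaptor of endocytosis, was at 1.08%, 39.1%, 1.52% and 64.5%. In both exons the Ptbp2 knockdown did not leave the interval of control, and the 2 libraries with the Ptbp1 shRNA lay above. Agrn, Epb41l3, Wnk1 and Slc8a1 (exons of 21 and 69 nucleotides) were also higher, by 21.0 to 38.4 points, though the 69-nucleotide Slc8a1 exon had reads over only 1 of its inclusion junctions and Agrn differed by 9.0 points by the smaller junction. Lower exons on the list, other than those above, lay in Ptprs, Trio, Ktn1, Plekha6, Camk2d, Mink1, Cadm1, Tcf3 and Dpf2, with differences of -36.5 to -20.5 points. Of these, Ptprs (-0.19), Trio (-0.13), Camk2d (-0.19) and Cadm1 (-0.16) differed by less than 0.2 in the SpliceTrap ratio. The intervals of the compared libraries overlapped for Ptprs, Camk2d and the 21-nucleotide Slc8a1 exon. By the smaller junction Ktn1 differed by -51.8 and Camk2d by -52.4 points. The Dpf2 exon had 1 read over its second inclusion junction in the double knockdown and none in the Ptbp1 knockdown, and by the smaller junction the difference was 1.25 points.

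Of 50 splicing regulators with a measured exon, 4 (8%) had a called one, against 2.45% of all genes with a measured exon. Mbnl1 and Mbnl2, which encode muscleblind proteins, each have an alternative exon of 54 nucleotides, and both were higher. Mbnl1 (chr3:60418605-60418658) was at 67.6%, 60.3%, 84.6% and 85.9%. Mbnl2 (chr14:120794934-120794987) was at 48.1%, 53.4%, 76.5% and 83.4%. Both libraries with the Ptbp2 shRNA lay above both without it in each gene, while the level of Mbnl2 differed little (55.4 and 53.9 CPM in the Ptbp1 and double knockdowns) and that of Mbnl1 was lower. The 2 exons share 46 of 54 bases, and capitals here mark the 8 that differ.
Mbnl1: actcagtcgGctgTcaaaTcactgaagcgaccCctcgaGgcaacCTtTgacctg
Mbnl2: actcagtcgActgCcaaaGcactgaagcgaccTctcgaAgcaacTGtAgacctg
The other 2 regulators had lower exons. Tia1, an RNA-binding protein of stress granules, had a 33-nucleotide exon (chr6:86369095-86369127) at 76.5%, 62.8%, 49.5% and 34.0%. Rbm4 had a 682-nucleotide exon (chr19:4787361-4788042) at 54.2% in the Ptbp1 knockdown and 32.6% in the double knockdown, a difference of -21.6 points that was -13.9 points by the SpliceTrap ratio.

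Genes with a called exon differed in level about as seldom as all genes. Of these 243 genes 5 were at least 2-fold lower, namely Azin2, Col22a1, Gria2, Ltk and Pyroxd2, and none was at least 2-fold higher, against 2.19% and 0.176% of all genes, and their median log2 difference was 0.01.

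Other kinds of splicing events were measured by the SpliceTrap ratio, expressed here as a percent. Retained introns were higher in 7 (0.927%) and lower in 4 (0.530%) of 755, alternative 5′ splice sites in 16 (0.771%) and 11 (0.530%) of 2075, and alternative 3′ splice sites in 25 (0.729%) and 23 (0.670%) of 3431. These are counts of events as listed by SpliceTrap, not of distinct sites. Among the higher ones, a 5′ site of Atp2b4 and 3′ sites of Ache and Fam114a2 were listed more than once. The following examples were chosen after their values were seen, among events with many reads. In Psap, the precursor of saposins, a 5′ splice site event of 27 nucleotides stood at 91.5%, 62.5%, 95.4% and 38.2%. Enah, an actin regulator of the Ena/VASP family, had an alternative 3′ splice site event at 33.2%, 63.1%, 29.3% and 87.0%. In both genes the Ptbp2 knockdown lay near control and the double knockdown lay beyond the Ptbp1 knockdown. Snap91, a clathrin assembly protein of synapses, had a 3′ splice site event of 15 nucleotides at 99.2% to 99.9% in the other 3 libraries and at 71.4% in the double knockdown. Med22, a Mediator subunit, had a retained intron event at 68.9%, 42.2%, 54.9% and 17.6%.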

How the data were processed

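Libraries were poly(A) RNA sequenced as strand-specific 100-base pairs. Per the submitters' processing notes, CASAVA, TopHat and Cufflinks were used with mm9; no versions are stated. The deposited Cufflinks tables hold FPKM with intervals, coverage (a signal) and a score that was not used. The deposited SpliceTrap tables hold, per the file headers, an inclusion ratio (a fraction), counts of reads over junctions and exon coverage. FPKM was divided by each library's sum of FPKM times length, because the deposited scale differed between libraries. Exon reads were summed per gene over distinct exons, scaled by median of ratios over the 4 libraries and compared as log2(CPM + 0.1) with at least 1 CPM. FPKM was compared as log2(FPKM + 1) with at least 3. Genes were called at 2-fold, exons at 20 points. Wilson intervals (95%) used inclusion reads rounded to whole reads. An exon stood for the trio with most reads. Trios were named through RefSeq guide transcripts; 97.3% of measured exons matched GENCODE. Named genes and exons were the 15 per direction with the largest value of the smaller of 2 measures, the PTB family, list members past 2-fold (or the extreme members of a list) and called exons of listed PTB targets and splicing regulators; others are marked as chosen later, and a few items that meet these rules are not reported here. Members and lists were chosen with earlier results of these data known. Python 3.11.15, numpy 2.4.6 and pandas 2.3.3 were used.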

Additional observations from a re-analysis of the deposited data

Results flagged for a closer look

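Exons of 4 genes moved by at least 20 points one way in the double knockdown against the Ptbp1 knockdown and by at least 20 points the other way in the Ptbp2 knockdown against control; the difference between both was not tested, and each side is 1 library. A 135-nucleotide exon of Ccdc97 differed by -28.3 points (73.3% to 45.0%) and by 30.3 points in the other pair (35.6% to 66.0%). A 196-nucleotide exon of Abcc10 differed by 22.2 points (77.8% to 100%) and by -20.6 points (95.6% to 75%). A 42-nucleotide exon of Ndrg2 differed by 22.8 points (45.8% to 68.6%) and by -27.2 points (52.2% to 25%). A 105-nucleotide exon of Clip2, a linker of membranes to microtubules, differed by 24.9 points (68.5% to 93.4%) and by -20.6 points (38.0% to 17.5%). The SpliceTrap ratio differed by less than 0.2 for Ccdc97 (-0.18) and Ndrg2 (0.17), and the intervals of the compared libraries overlapped for both. They were 58.0% to 85.0% and 30.7% to 60.2% for Ccdc97, and 30.2% to 63.9% and 52.0% to 81.4% for Ndrg2. The intervals of control and the Ptbp2 knockdown overlapped for Abcc10 (79.0% to 99.2% and 56.6% to 87.3%). They also overlapped for Ndrg2 (39.9% to 65.0% and 11.2% to 46.9%) and Clip2 (27.6% to 49.7% and 10.0% to 28.6%), but not for Ccdc97.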

How the results depend on the processing

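No paired analysis was possible because each group held 1 library. Counts of genes by exon reads (19 higher, 237 lower) became 7 and 112 with a pseudocount of 1 CPM, 7 and 125 from 5 CPM, 29 and 382 with no minimum, and 40 and 155 relative to genes of like level. By FPKM, the lower genes became 166 with a pseudocount of 0.1, 44 (and 35 higher) with 5, and 67 from 10 FPKM. From 50 junction reads the higher exons became 87, retained introns 2 higher and 2 lower, 5′ sites 5 and 4, 3′ sites 11 and 12; in the Ptbp2 knockdown against control, higher exons were 6 higher and 1 lower there, and lower exons 0 higher there. From 100 reads, exons became 55 higher and 65 lower. The smaller inclusion junction left Prune2 at 0 points, the 69-nucleotide Slc8a1 exon at 0 and Dpf2 at 1.25; the cause is the junction with at most 1 read. None of the 47 named genes reversed when scaled by total exon reads or upper quartile. Both scalings shift all genes nearly alike, with a median over all genes of -0.04 and -0.03, against 0.03 in the main scaling. Genes past 2-fold could therefore not reverse, and nothing follows from their kept direction. With the smaller junction, 10 named exons moved by more than the mean width of their intervals.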

Other observations

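Other genes lower in both measures, chosen after their values were seen, came from several systems. Sncb and Sncg, which encode synucleins, stood at 18.8 and 5.37 CPM in the Ptbp1 knockdown and at 8.11 and 2.07 CPM in the double knockdown. Chrna7, a nicotinic acetylcholine receptor subunit, stood at 40.8, 36.5, 13.1 and 17.9 CPM in control, Ptbp1, Ptbp2 and double knockdown, and Flvcr1, a heme exporter, at 80, 94.9, 28.9 and 45.4 CPM. Arsb, a lysosomal sulfatase, stood at 41, 47.5, 16.5 and 20.5 CPM. In the last 3 genes both libraries with the Ptbp2 shRNA lay below both without it. Gnb3, a G protein subunit, stood at 3.86, 20.1, 2.63 and 7 CPM, so that the double knockdown lay between control and the Ptbp1 knockdown.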
